A study of Mus musculus with 2 samples.

Results

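Genes of glucose, glycogen and insulin metabolism were examined for binding of CHOP in mouse liver under stress of the endoplasmic reticulum. The group holds 45 protein-coding genes, out of 21866 on chromosomes that carry peaks. They were chosen by name for their role and not by a cut on a measured value, but with earlier results of these data known. CHOP, the product of Ddit3, is a bZIP transcription factor of the C/EBP family that accumulates when proteins misfold in that compartment. Binding was mapped by chromatin immunoprecipitation and sequencing (ChIP-seq). The animals were wild-type (WT) mice injected intraperitoneally with tunicamycin, which blocks N-linked glycosylation, at 1 mg/kg body weight and killed after 8 h. Livers of 3 such mice were combined before immunoprecipitation into a single library. A single input library, of unprecipitated DNA with the same labels, was not analysed here. Age and sex are not given in the sources used here. Neither untreated nor CHOP-deficient mice were among the samples, and nothing was repeated, so no value below has an error between animals. No RNA was measured, so the labelled tissue could not be checked against its marker genes and a peak says nothing about whether its gene changed in expression.

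The liver keeps blood glucose steady by storing glucose as glycogen after meals and by releasing it from glycogen and from new synthesis during fasting. Insulin acts through its receptor, the IRS adaptors, PI3-kinase and AKT. AKT keeps FOXO transcription factors out of the nucleus and inhibits GSK3, which frees glycogen synthase to work. In fasting, FOXO1 and the CREB coactivator CRTC2 drive the gluconeogenic genes Pck1 and G6pc.

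A gene counted as having a promoter peak if the summit (the highest point of a peak) lay within 1 kb of one of its start sites. It counted as having a distal peak if it had the nearest protein-coding start site to a summit further away but within 50 kb. Of the 45 genes, 19 (42.2%) had a promoter peak, against 27.9% of all protein-coding genes, and 20 (44.4%) had a distal peak, against 18%. Both kinds were present at 10 genes, and 29 genes (64.4%) had at least 1 peak, against 38.2% of all genes. The remaining 16 had none. Members were chosen with earlier results of these data known, so these shares are descriptions and carry no test.

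The 29 genes held 50 peaks, 20 at promoters and 30 distal. The authors' fold enrichment compares the reads stacked at a summit with the background around it. The number of reads was recovered from that fold and the deposited −log10 p, and folds are followed by a 95% exact Poisson interval, which covers counting error at the summit only. The 50 peaks rested on 5 to 68 reads, and 18 of them on fewer than 10. In 20 of them the background was the genome-wide floor of 0.333 reads, so that peaks with the same number of reads there have the same fold. The strongest promoter peaks of the members had a median fold of 6.90, against 6.86 over the 6100 genes with a promoter peak. Of the 19 members, 6 lay at or above the upper quartile of all promoter folds (9.72) and 7 at or below the lower quartile (5.39). The strongest distal peaks had a median fold of 9.0, against 7.50 over all genes with a distal peak.

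**Figure D1:**
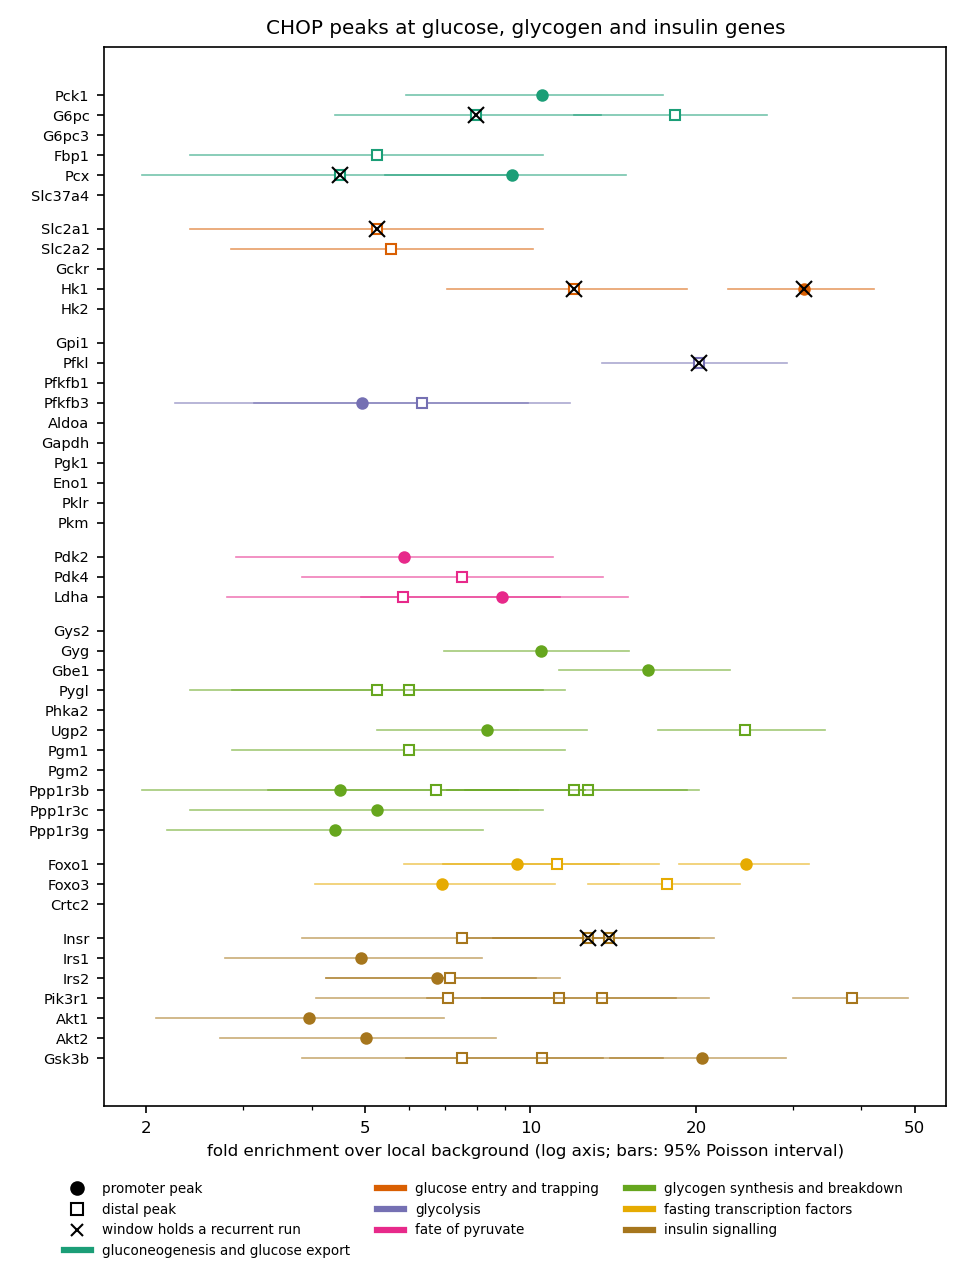
Fold enrichment of all 50 CHOP peaks at the 45 genes (log axis), by gene and coloured by role, with filled circles for promoter peaks, open squares for distal peaks and bars for the 95% Poisson interval. Crosses mark the 8 peaks whose summit window holds a recurrent run of bases. The highest promoter peak is that of Hk1 and the highest distal peak that of Pik3r1, at 38.5-fold. For 8 of 10 glycolytic genes no peak counted, nor did any for 13510 of all 21866 genes.

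The sequences at the summits show what lay under the peaks. Windows run 50 bp to either side of the summit, are mm10, forward strand, 5′ to 3′, and capitals mark matches on either strand to the motifs named further on. The first set holds promoter peaks of high fold: Foxo1 (chr3:52269211-52269311), Gsk3b (chr16:38088637-38088737), Gbe1 (chr16:70314393-70314493), Pck1 (chr2:173152681-173152781), Pcx (chr19:4510649-4510749) and Ldha (chr7:46845703-46845803). Gyg (chr3:20155091-20155120) is cut to 30 bases because its window overlaps an annotated UTR.
Foxo1: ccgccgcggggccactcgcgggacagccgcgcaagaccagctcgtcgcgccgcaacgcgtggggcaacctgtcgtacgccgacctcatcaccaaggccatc
Gsk3b: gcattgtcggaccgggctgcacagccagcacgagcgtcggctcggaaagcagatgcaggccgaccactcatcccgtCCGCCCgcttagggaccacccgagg
Gbe1: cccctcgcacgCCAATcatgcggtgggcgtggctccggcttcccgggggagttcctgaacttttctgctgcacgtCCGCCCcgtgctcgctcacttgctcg
Pck1: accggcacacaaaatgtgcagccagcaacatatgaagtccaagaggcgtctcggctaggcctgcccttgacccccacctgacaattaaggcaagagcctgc
Gyg: tatagcggccgtCACGTGgccgcgcaggct
Pcx: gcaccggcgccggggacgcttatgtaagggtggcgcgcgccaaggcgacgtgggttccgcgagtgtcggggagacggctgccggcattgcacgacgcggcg
Ldha: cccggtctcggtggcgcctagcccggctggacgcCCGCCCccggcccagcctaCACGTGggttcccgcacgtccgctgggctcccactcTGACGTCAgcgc

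The second set holds distal windows with a C/EBP-type or other bZIP match, or with the highest fold of their gene. These are G6pc (chr11:101379225-101379325), Slc2a2 (chr3:28725369-28725469), the Pik3r1 window with a composite match (chr13:101779228-101779328), the strongest Pik3r1 window (chr13:101736890-101736990), Ugp2 (chr11:21399448-21399548) and Foxo3 (chr10:42278233-42278333). Of these, Pik3r1, Ugp2 and Foxo3 were chosen after their values were seen.
G6pc: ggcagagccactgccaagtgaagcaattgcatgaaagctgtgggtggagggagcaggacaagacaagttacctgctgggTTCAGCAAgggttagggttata
Slc2a2: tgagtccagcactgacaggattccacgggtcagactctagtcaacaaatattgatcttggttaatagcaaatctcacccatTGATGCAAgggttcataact
Pik3r1, composite: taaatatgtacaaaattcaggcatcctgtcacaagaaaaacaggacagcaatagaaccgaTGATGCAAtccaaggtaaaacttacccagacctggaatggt
Pik3r1, strongest: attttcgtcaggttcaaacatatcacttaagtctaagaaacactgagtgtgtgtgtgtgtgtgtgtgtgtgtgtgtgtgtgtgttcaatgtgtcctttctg
Ugp2: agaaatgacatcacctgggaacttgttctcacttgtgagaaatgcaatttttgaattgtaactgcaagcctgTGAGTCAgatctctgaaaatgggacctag
Foxo3: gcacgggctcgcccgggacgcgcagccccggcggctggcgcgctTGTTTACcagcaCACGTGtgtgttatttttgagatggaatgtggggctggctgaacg

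Some stretches of sequence recurred under peaks of this list. A run of 12 bases holding all 4 letters was called recurrent if it lay in at least 50 of the 14157 summit windows and in at least 10 times as many of them as of windows 500 bp away. There were 72 such runs. They were found in 1116 summit windows (7.88%) and in 88 of the windows 500 bp away (0.622%). Among the members, 8 peaks at 6 genes held a recurrent run: the promoter peak of Hk1, 2 distal peaks of Insr, and 1 distal peak each of Pfkl, G6pc, Pcx, Hk1 and Slc2a1. That is 1 of 20 promoter peaks (5.0%, against 0.777% of all promoter peaks) and 7 of 30 distal peaks (23.3%, against 14.9%). Without such peaks 18 members had a promoter peak, against 27.7% of all genes, and 16 a distal peak, against 15.6%. Over the whole list, peaks with a run had a median fold of 9.0, against 6.63 for the others. The median share of the window marked as repeat was 61.4% with a run and 0.0% without. The part of these runs in the peaks was not tested.

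Gluconeogenesis and glucose export were represented by 6 genes, of which 2 (33.3%) had a promoter peak and 3 (50%) a distal peak. The shares of all protein-coding genes were 27.9% and 18%. Pck1 encodes the cytosolic phosphoenolpyruvate carboxykinase that commits oxaloacetate to glucose. It had a promoter peak of 10.5-fold (5.94 to 17.4, 13 reads) with its summit 317 bp upstream of its single start site, at chromosome 2, 173152601 to 173152872, and it ranked 1262nd of the 6100 genes with a promoter peak. Pcx, pyruvate carboxylase, which feeds pyruvate into the pathway, had one of 9.27-fold (5.44 to 14.9, 15 reads) in an intron 213 bp downstream of a start site. A further peak of Pcx, 6352 bp from a later start site, was the weakest distal peak of the group, at 4.50-fold (1.97 to 9.50, 5 reads).

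G6pc, the catalytic subunit of glucose-6-phosphatase, which releases free glucose, had no promoter peak but had a pair of distal ones. The stronger, 18.3-fold (12.0 to 26.9, 24 reads), lay 11714 bp downstream of the start site and 1372 bp past the annotated end of the gene. The weaker lay in an intron at 1782 bp, with 7.95-fold (4.40 to 13.4, 12 reads) and a recurrent run in its window. The intervals of the pair overlap between 12.0 and 13.4. Fbp1, fructose-1,6-bisphosphatase, had only a 5.25-fold peak (2.40 to 10.5, 6 reads) 26249 bp upstream. G6pc3, the widely expressed glucose-6-phosphatase subunit, and Slc37a4, the transporter that carries glucose-6-phosphate into the endoplasmic reticulum, had neither kind. The summit nearest to Slc37a4 was 17254 bp away, at 51.3-fold, and counted for its neighbour Hyou1.

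Glucose entry and trapping gave 1 promoter peak among 5 genes (20%, against 27.9% of all genes) and 3 genes with a distal peak (60%, against 18%). Hk1, a hexokinase that phosphorylates glucose, had the highest promoter fold of the group, 31.4 (22.8 to 42.2, 42 reads), 105th of 6100. This summit lay 241 bp inside an internal start site, 17875 bp from the outermost one, 50.5% of its window is marked as repeat in the reference, and it holds recurrent runs. With the outermost start site only, with the basic transcript set only or without repeat-masked summits, Hk1 had no promoter peak. Slc2a2, the GLUT2 glucose transporter of hepatocytes, had an intronic peak 27516 bp from its start of 5.58-fold (2.85 to 10.1, 9 reads). Slc2a1, the GLUT1 transporter, had one of 5.25-fold on 6 reads 7435 bp upstream. Gckr, which holds glucokinase in the nucleus, and Hk2, an inducible hexokinase, had none, and the nearest summit to Hk2 was 120098 bp away.

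Glycolysis was the role with the lowest share of genes with a peak. Of 10 genes, 1 had a promoter peak and 1 other had a distal peak alone. That is 20% with any peak, against 38.2% of all genes, so that most genes of the genome had none either. Pfkfb3, a kinase that makes the activator of phosphofructokinase, had a promoter peak of 4.93-fold (2.25 to 9.90, 6 reads) 721 bp upstream and a distal one of 6.35-fold on 8 reads. Pfkl, the liver phosphofructokinase, had a 20.2-fold peak (13.5 to 29.3, 26 reads) in an intron 2725 bp from a start site, and its window holds recurrent runs. No peak counted for Gpi1, Pfkfb1, Aldoa, Gapdh, Pgk1, Eno1, Pklr or Pkm. The nearest summits ranged from 4184 bp away at Pfkfb1, counted for Apex2, to 121698 bp at Pgk1. Counting every gene with a start within 50 kb, nearest or not, all of them but Pgk1 had a distal peak, as had 51.8% of all genes. These 8 genes encode glycolytic enzymes, or, for Pfkfb1, the liver form of the regulatory kinase. Among the other glycolytic genes that were not members, 5 of 18 (27.8%) had a promoter peak, near the 27.9% of all genes. They were led by Adpgk, an ADP-dependent glucokinase, at 8.34-fold, and Tigar, which lowers fructose-2,6-bisphosphate, at 8.25-fold. Pgam1 had 4.79-fold, and so, within rounding, had Mlxipl, the glucose-responsive factor ChREBP.

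The fate of pyruvate is set by kinases that shut off pyruvate dehydrogenase and by lactate dehydrogenase. All 3 members had a peak, as had 38.2% of all genes. Ldha had a promoter peak of 8.89-fold (4.92 to 15.02, 12 reads) 86 bp upstream of an internal start site, 4278 bp from the outermost one. Its window holds the CRE palindrome TGACGTCA and the E-box CACGTG. Pdk2 had one of 5.89-fold (2.91 to 10.97, 8 reads) 23 bp downstream of its start. Pdk4, the kinase raised in fasting, had a distal peak of 7.50-fold on 9 reads 16188 bp from its start, with 96.0% of its window marked as repeat. Of 11 further genes of this role, 7 (63.6%) had a promoter peak, against 27.9% of all genes, and none a distal one. They were led by Pdhb, a subunit of pyruvate dehydrogenase, at 13.2-fold and Pdk1 at 8.76-fold. Mpc1, a subunit of the mitochondrial pyruvate carrier, had 6.46-fold and Pdp1, the phosphatase that reactivates the complex, 6.40-fold.

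Glycogen genes had promoter peaks at 6 of 11 members (54.5%, against 27.9% of all genes) and distal peaks at 4 (36.4%, against 18%). With −log10 q of at least 5, 3 of the 11 kept a promoter peak, against 21.0% of all genes. Gbe1, the branching enzyme, had the strongest promoter peak, 16.4-fold (11.3 to 23.0, 31 reads), in an intron 309 bp from a start site, with a width of 973 bp. Gyg, glycogenin, which primes a new glycogen particle, had one of 10.4-fold (6.96 to 15.1, 26 reads) 15 bp from a start site, with an E-box at the summit. Ugp2, which makes UDP-glucose, had a promoter peak of 8.34-fold (5.25 to 12.7, 20 reads) and a stronger distal peak of 24.6-fold (17.0 to 34.4, 32 reads) 28297 bp upstream. The intervals of the 2 peaks of Ugp2 do not overlap. They take the backgrounds, 1.52 reads at the promoter and 0.343 at the distal peak, as known without error.

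The glycogen-targeting subunits of protein phosphatase 1, which bring the phosphatase to glycogen synthase and phosphorylase, had weak promoter peaks. Ppp1r3c had 5.25-fold on 6 reads, Ppp1r3b 4.50-fold on 5 reads and Ppp1r3g 4.40-fold on 8 reads, and none of these 3 genes had a promoter peak with 10 or more reads. The window of Ppp1r3g is 90.1% repeat-masked, and without repeat-masked summits this gene had no promoter peak. Ppp1r3b, the main subunit of the liver, had in addition 3 distal peaks, of 12.7-fold (7.61 to 20.2, 16 reads) 19346 bp upstream, 12.0-fold (7.05 to 19.3, 15 reads) 49845 bp downstream and 6.74-fold on 8 reads 30474 bp downstream. Its strongest distal peak therefore rested on more reads than its promoter peak, 16 against 5, over the same background of 0.333 reads. The intervals overlap, and the difference was not tested. Pygl, the liver glycogen phosphorylase, had distal peaks of 6.0-fold on 7 reads and 5.25-fold on 6 reads, and Pgm1, a phosphoglucomutase, had one of 6.0-fold on 7 reads. No peak counted for Gys2, the liver glycogen synthase, for Phka2, a regulatory subunit of phosphorylase kinase, or for Pgm2. Of 16 other glycogen genes, 8 (50%) had a promoter peak, against 27.9% of all genes. They were led by Gaa, the lysosomal glucosidase, at 13.3-fold, Nhlrc1 at 8.90-fold, Ppp1r3e at 7.54-fold and Epm2a, the glycogen phosphatase laforin, at 6.67-fold.

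The fasting transcription factors FOXO1 and FOXO3 had several peaks at each gene, and the coactivator gene Crtc2 had none. Foxo1 had 3 around its single start site. These were of 9.47-fold (5.89 to 14.5, 19 reads) 9 bp upstream, 24.7-fold (18.6 to 32.1, 53 reads) 925 bp downstream in a coding exon, and 11.2-fold (6.94 to 17.1, 19 reads) 1504 bp downstream in an intron. The middle peak exceeds both flanking ones beyond the counting intervals. It was also the summit nearest to the 1 kb limit from inside, and the nearest from outside was one of Irs2 at 1189 bp. At the 50 kb limit the nearest inside was Ppp1r3b at 49845 bp and the nearest outside Foxo3 at 55616 bp. Foxo3 had a promoter peak of 6.90-fold (4.05 to 11.1, 15 reads) 143 bp upstream and a stronger peak of 17.7-fold (12.7 to 24.1, 39 reads) 1528 bp upstream, again with intervals that do not overlap. The window of the latter holds the forkhead core TGTTTAC and an E-box. Of 15 other genes of this arm, 11 (73.3%) had a promoter peak, against 27.9% of all genes. The highest were Sik1, a kinase that restrains CRTC2, at 13.6-fold, the coactivator gene Ep300 at 11.9-fold, Ppargc1b at 10.8-fold and Creb1 at 9.91-fold.

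All 7 insulin signalling members had at least 1 peak, 5 at the promoter and 4 at a distance. Of all protein-coding genes, 38.2% had any peak, 27.9% a promoter peak and 18% a distal peak. With −log10 q of at least 5, 2 of the 7 kept a promoter peak, against 21.0% of all genes. Gsk3b, the kinase that inactivates glycogen synthase, had the strongest promoter peak, 20.5-fold (14.0 to 29.2, 29 reads) 314 bp upstream, in a region 1695 bp wide. It had intronic peaks of 10.5-fold (5.94 to 17.4, 13 reads) and 7.50-fold on 9 reads as well. The adaptor genes Irs2 and Irs1 had promoter peaks of 6.75-fold (4.25 to 10.2, 20 reads) and 4.91-fold (2.78 to 8.16, 13 reads), both about the same distance upstream (223 and 222 bp). Irs2 had another of 7.12-fold (4.25 to 11.3, 16 reads) in its coding exon. The AKT kinase genes had 5.03-fold (2.72 to 8.67, 11 reads) at Akt2 and 3.95-fold (2.08 to 6.97, 10 reads) at Akt1, which was 5890th of 6100. The intervals of Irs1, Irs2, Akt1 and Akt2 all overlap, and the order of these 4 genes was not tested.

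Insr, the insulin receptor, and Pik3r1, the p85 regulatory subunit of PI3-kinase, had distal peaks alone. Pik3r1 had 4, and the one 31277 bp downstream in an intron was the strongest of all member peaks at 38.5-fold (30.02 to 48.7, 68 reads), 219th of the 14157 peaks. Its window is 53.5% repeat-masked, and the repeated letters tg fill its centre in the printed sequence. The other 3, upstream, had 13.5-fold (8.18 to 21.2, 17 reads) at 9535 bp, 11.2-fold (6.49 to 18.4, 14 reads) at 11061 bp and 7.07-fold (4.08 to 11.5, 14 reads) at 33474 bp. The one of 11.2-fold is the peak with the composite match TGATGCAA. Insr had 3 intronic peaks, of 13.9-fold (8.54 to 21.5, 18 reads), 12.7-fold (7.61 to 20.2, 16 reads) and 7.50-fold (3.84 to 13.6, 9 reads), and only the weakest is free of recurrent runs. Of 26 other insulin signalling genes 13 (50%) had a promoter peak, against 27.9% of all genes. Pik3ca, the catalytic subunit of PI3-kinase, led with 19.0-fold (13.1 to 26.8, 31 reads), followed by Gsk3a at 14.2-fold, Foxk2 at 11.2-fold and Pik3r2 at 11.01-fold.

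**Figure D2:**
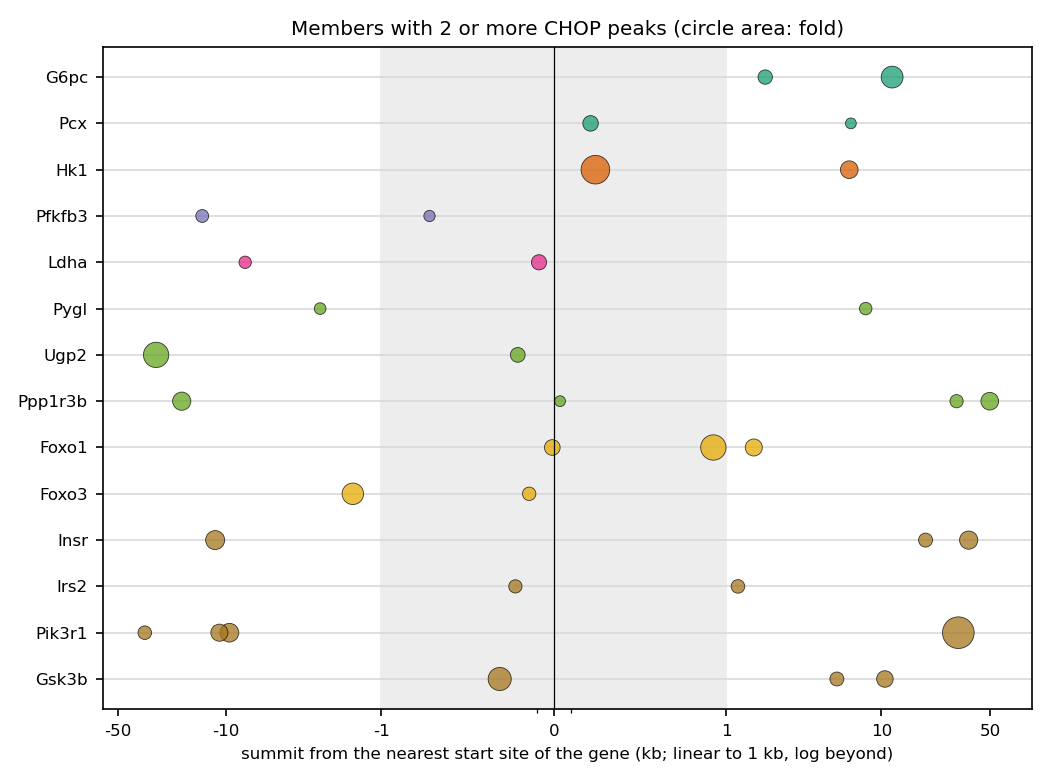
Position of each summit from the nearest start site of its gene in kb (linear to 1 kb, log beyond, negative upstream) for the 14 members with 2 or more peaks, with circle area proportional to fold and colour by role. The grey band is the promoter zone of 1 kb to each side. Foxo1, Foxo3 and Irs2 have peaks inside it and another just outside, at 1504, 1528 and 1189 bp. Those of G6pc, Pygl, Insr and Pik3r1 all lie beyond it.

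Across the other 103 genes of these pathways, 50 (48.5%) had a promoter peak and 24 (23.3%) a distal peak. The members had 42.2% and 44.4%, and all protein-coding genes 27.9% and 18%. In gluconeogenesis the other genes had promoter peaks at 5 of 9, the highest at Got1, a transaminase of the aspartate shuttle, with 16.5-fold (10.6 to 24.6, 22 reads) and a composite match, then Slc25a10 at 10.3-fold, Mdh1 at 6.75-fold, a peak also within 1 kb of a start of Wdpcp, and Fbp2 at 5.25-fold. In glucose entry and trapping 1 of 8 had one, Slc2a8 at 3.73-fold on 6 reads. No test was made between the roles, which hold 3 to 11 members each.

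**Figure D3:**
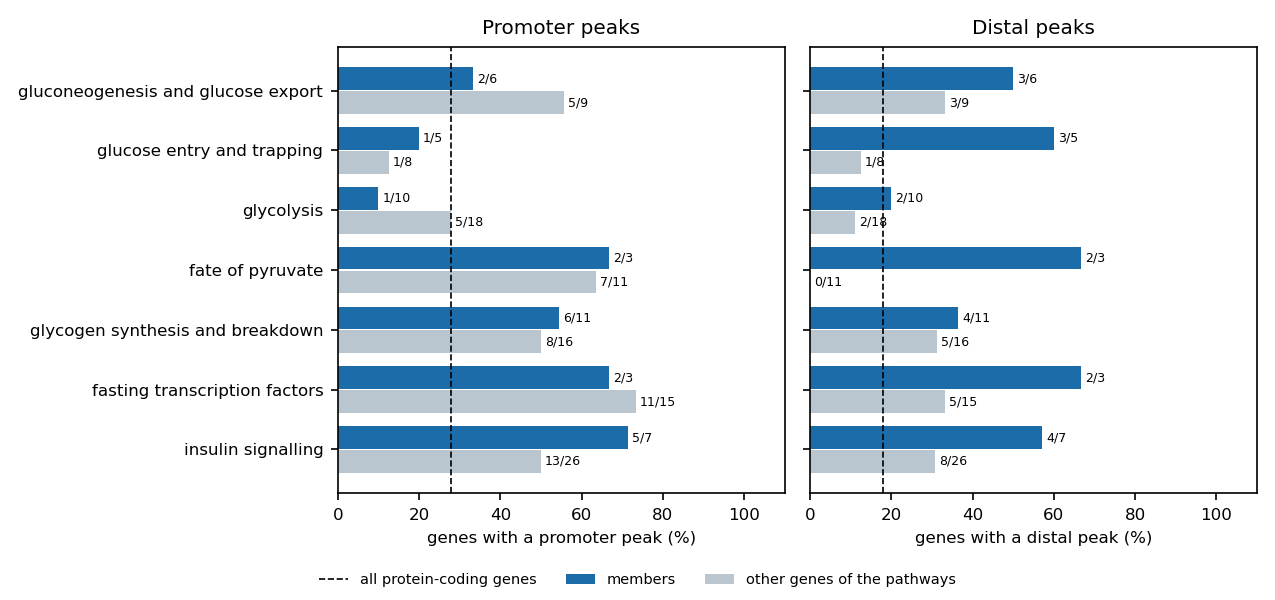
Share of genes (%) with a promoter peak (left) and with a distal peak (right) by role, for the 45 members and for the 103 other genes of the same pathways, with numbers of genes beside the bars and a dashed line at the share of all protein-coding genes. In promoter peaks the glycolytic members are lowest at 1 of 10 and the insulin signalling members highest at 5 of 7. The fate of pyruvate and the fasting factors follow at 2 of 3 each. With −log10 q of at least 5, not drawn, insulin signalling had 2 of 7 and those 2 roles stayed at 2 of 3.

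Promoter peaks over all genes were more frequent where start sites were rich in CpG, so the members were also set out by it. For each gene the 1 kb window around a start site with the highest ratio of observed to expected CpG was used. Among all genes with a ratio of 0.4 or more, 5945 of 14180 (41.9%) had a promoter peak, and among those below it 155 of 7686 (2.02%). Of the members, 39 were at or above this ratio, and 18 of them (46.2%) had a promoter peak, a share near that of all such genes. The other 6 were Slc2a2, Pklr, G6pc, Gckr, Gys2 and Pck1, genes of hepatocyte glucose handling, and of these Pck1 alone had a promoter peak, at a ratio of 0.313. Of the 10 glycolytic members all but Pklr, that is 9, were at 0.592 or higher, and 1 of these 9 had a promoter peak, whereas all 7 insulin signalling members were at 0.704 or higher and 5 had one. The median ratio was 0.802 in members with a promoter peak and 0.667 in those without.

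**Figure D4:**
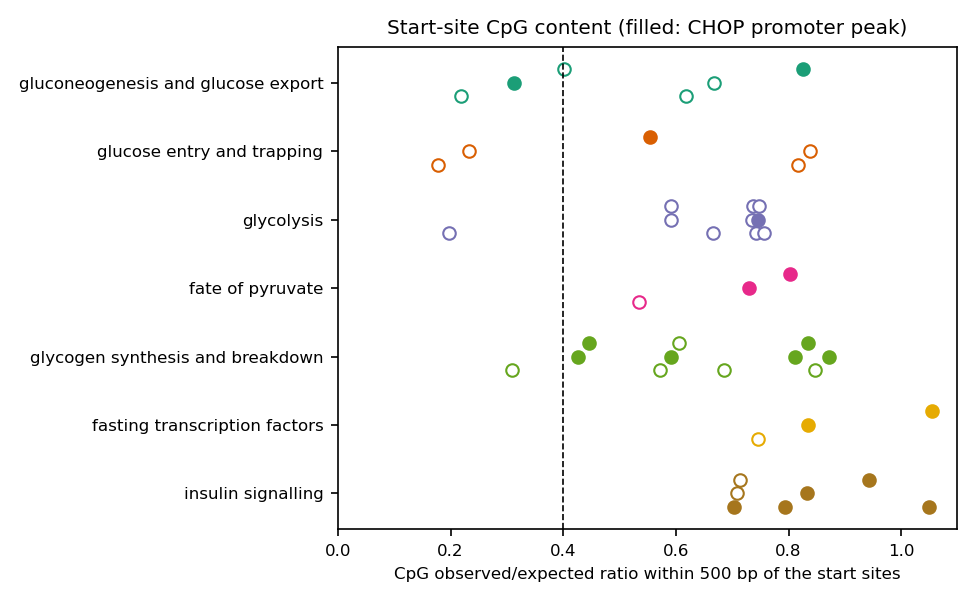
Highest ratio of observed to expected CpG within 500 bp of a start site for each of the 45 genes, in rows by role, with filled circles for genes with a CHOP promoter peak and a dashed line at 0.4. Pck1 is the only filled circle left of the line, and the glycolytic genes apart from Pklr lie between 0.592 and 0.756 with 1 filled circle.

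The strongest promoter summits of the members had a median distance to the start of 222 bp, against 111 bp over all 6100 genes. Within 100 bp lay 6 of 19 (31.6%), against 47.2%, and no test was made of these differences. Upstream of the start lay 11 and downstream 8 (42.1%), against 59.1% downstream over all genes. None of the 20 promoter peaks lay within 1 kb of another protein-coding gene's start. Of the 30 distal summits, 15 were intergenic, 14 in introns and 1 in a coding exon. For the 3 members on chromosome X, Pfkfb1, Pgk1 and Phka2, no peak counted.

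Motifs were searched on both strands within 50 bp of the summit. A match is a description of letters and not a proven site. The bZIP set was the C/EBP-ATF composite TGATGNAA, the C/EBP site TTGCNNAA, the CRE TGACGTCA, its part TGACGT, which overlaps it, and the AP-1 site TGANTCA. At the strongest promoter summits of the members, 1 of 19 (5.26%) held any of these, which was Ldha, against 7.52% over all 6100 genes. Of windows of the same length around 1 start site for each of the 21866 genes, 9.35% held one. The composite and the C/EBP site were in none of the 19, where all genes had 1.80% and 2.07%. The GC box GGGCGG, by comparison, was in 9 of 19 (47.4%, against 46.2%), the CCAAT box in 2 (10.5%, against 7.49%) and the E-box CACGTG in 2 (10.5%, against 5.84%).

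At the strongest distal summits 5 of 20 members (25%) held a bZIP match, against 19.8% over all genes with a distal peak. Composites were in 1, which was Slc2a2, against 10.3% of all. C/EBP sites were in 2, which were G6pc and Pcx, against 5.79%, and AP-1 sites in 2, which were Ugp2 and Gsk3b, against 4.14%. The Pcx peak rested on 5 reads, and its window also holds recurrent runs. Over all 30 distal peaks the composite was found in 2, at Slc2a2 and Pik3r1, and the forkhead core TGTTTNC in 3, in Foxo3, G6pc and Pfkfb3. At the strongest distal summits the forkhead core was in 2 of 20 members, a share near the 8.42% over all genes with a distal peak. In the G6pc window the C/EBP match lies 33 bp from the summit, and in that of Slc2a2 the composite lies 35 bp away.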

How the data were processed

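CHOP ChIP-seq peaks from 1 pooled liver immunoprecipitate were used. Per the labels' protocols, the authors aligned single-end reads to mm10 with Bowtie (at most 2 mismatches), kept at most 2 reads per position and strand, filtered with SAMtools 1.9 and Sambamba 0.7.1 and called peaks with MACS2 2.1.2 at default settings. The authors deposited per peak a fold enrichment (a ratio), −log10 p and −log10 q, a score equal to 10 times −log10 q within 1, and a summit offset. No source used here gives the total depth.

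Protein-coding transcripts of GENCODE M21 gave the start sites, and sequence was GRCm38.p6, whose chromosome lengths hold all 14157 peaks. A second gene named Aldoa in the annotation was not used. Pileup and background were solved from fold = (pileup + 1)/(background + 1) and the Poisson p for all peaks, within 0.0001 in −log10 p, after a check on simulated data. The labels name no molecular identifiers, and intervals cover counting error only. All members are accounted for, and other pathway genes are named by the 4 highest promoter folds per role. Windows were selected as the 8 highest promoter folds and the promoter or strongest distal windows with a composite or C/EBP match, of which 7 promoter and 2 distal windows are printed and the others are not reported here. Further windows are said to be chosen afterwards. Members and lists were chosen with earlier results of these data known, the CpG limit of 0.4 and the recurrent-run rule after seeing the peaks. No test across genes was made. Python 3.11.15, numpy 2.4.6, pandas 2.3.3, scipy 1.17.1, pysam 0.24.0 and matplotlib 3.10.9 were used.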

Additional observations from a re-analysis of the deposited data

How the results depend on the processing

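The counts of members with a promoter, distal or any peak, the median promoter fold and the number of promoter summits with a bZIP match were recomputed under stricter peak thresholds, other promoter and distal distances, other start sites, other motif windows and without repeat-like summits. Of 59 recomputed values, 51 stayed within 1.5 times the reported count or, for the fold, within the 95% binomial interval of the median. The median promoter fold never left that interval, but stricter thresholds set it above that of all genes with a promoter peak. It was 9.86 against 7.91 with −log10 q of at least 5, and 9.08 against 7.52 with a fold of at least 5. With 10 or more reads it was 9.08 against 7.72. Other promoter rules also set it above: 8.34 against 6.79 with the summit within 500 bp and 8.14 against 7.0 within 3 kb. With any base of the peak within 1 kb it was 8.34 against 6.9. It lay just below with the outermost start site only (6.75 against 6.81) and with basic transcripts only (6.82 against 6.83). The same held without recurrent runs (6.82 against 6.85). With −log10 q of at least 5, 12 members had a promoter peak in place of 19 (21.0% of all genes). Lost were Akt1, Akt2, Irs1, Pfkfb3, Ppp1r3b, Ppp1r3c and Ppp1r3g. With 10 or more reads at the summit, 11 in place of 20 had a distal peak and 19 in place of 29 any peak (10.2% and 28.5% of all genes). Counting every gene with a start within 50 kb, nearest or not, 35 had a distal peak (51.8% of all genes). The bZIP count of 1 became 0 with the outermost start site only (7.30% of all genes with a promoter peak), 0 within 25 bp of the summit (3.95%), 0 with the composite and the palindrome TTGCGCAA alone (1.98%) and 2 within 100 bp (14.4%). The removal of recurrent runs and the composite TGATGCAAT with 1 mismatch were added after seeing the data. By role, promoter counts ran from 0 to 2 in glycolysis, 3 to 7 in glycogen genes and 2 to 5 in insulin signalling. In each of these settings fewer or more peaks, start sites or letters enter the count. No paired analysis was possible because there is 1 immunoprecipitated library. Of the 50 member peaks 18 rest on fewer than 10 reads, against 38.7% of all peaks, and their intervals are wide.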

Other observations

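Some members are the nearest gene of summits beyond the 50 kb limit. The first beyond it was a peak of Foxo3 at 55616 bp with a fold of 23.2 on 30 reads. Foxo1 had one at 72232 bp of 33.0-fold on 43 reads, beside one at 71870 bp of 6.0-fold on 7 reads. Irs2 had summits at 72810 bp (6.0-fold, 7 reads) and 108718 bp (10.5-fold, 13 reads), and among those of Ppp1r3b were summits at 164130 bp (14.2-fold, 18 reads) and 167210 bp (17.9-fold, 24 reads). These enter no count of the report.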
